A study of Homo sapiens with 6 samples.

Results

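The clustered replication-dependent histone genes encode the linker histone H1 and the core histones H2A, H2B, H3 and H4 that package newly copied DNA. Members were the protein-coding genes with the symbols H1-1 to H1-6 or with a symbol that begins with H2AC, H2BC, H3C or H4C and a number, the genes once named HIST1H, HIST2H, HIST3H and HIST4H. There were 70 members among 60612 gene identifiers: 6 of H1, 17 of H2A, 19 of H2B, 13 of H3 and 15 of H4. Of these, 55 belonged to the HIST1 cluster on chromosome 6, 11 to HIST2 and 2 to HIST3 on chromosome 1, and 1 to HIST4 on chromosome 12, while H2BC12L lies on chromosome 21 and met the rule by its symbol. H3-4 and H3-7 carry older HIST names but other current symbols and were not counted.

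Most of these genes lack introns, and their mRNAs end in a conserved stem-loop in place of a poly(A) tail. The factor NPAT drives their transcription at the start of S phase, and the stem-loop binding protein SLBP guides the cut that makes the mRNA end and later its translation. When DNA replication stops, the mRNAs are tagged with uridines and degraded, while replacement histones such as H3.3 are made throughout the cell cycle from ordinary polyadenylated mRNAs.

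RNA was sequenced in 6 libraries of T24, an established line of human bladder cancer cells. The 3 libraries labelled negative control carried Lenti-dsControl, a lentivirus that expresses a control hairpin. The 3 labelled FOXF1-activated carried Lenti-dsFOXF1-367, whose hairpin derives from a small activating RNA, a duplex designed to raise transcription of FOXF1, a forkhead transcription factor. Selection with puromycin at 3 μg/ml is given for all 6 libraries. The labels give no information on separate cultures, so p-values describe the spread among these libraries only, and that spread may be technical.

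FOXF1 ran against its label. It was at 7.51, 7.10 and 7.95 CPM (scaled counts, relative to each library's size) in the controls and at 5.94, 4.78 and 5.10 CPM in those labelled FOXF1-activated, a change of -0.51 on the log2 scale with an edgeR adjusted p of 0.0109. Higher and lower below therefore mean the libraries labelled FOXF1-activated against the controls, and not a rise in FOXF1. Library totals were 72500854 to 77198669 counts. Of 20334 genes tested, 60.7% passed an adjusted p of 0.05, with 29.2% higher and 31.5% lower. The epithelial keratin genes KRT7, KRT8 and KRT18 were at 188 to 671 CPM. Of the other epithelial markers, KRT19 was at 1.34 to 2.37 CPM and EPCAM at 0.187 to 1.07 CPM. The urothelial markers UPK1B, UPK2 and GATA3 were under 1 CPM. Of 8 markers of immune, endothelial and erythroid cells, 3 were called higher and none lower, and their summed level was 21.9 to 25.5 CPM in the controls and 28.9 to 38.3 CPM in those labelled FOXF1-activated. The leukocyte marker PTPRC (9.93 to 16.1 CPM over all libraries) and the T-cell marker CD3E (3.84 to 8.62 CPM) were among the 3, with the endothelial VWF. The part of these transcripts in the histone results was not tested.

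The stem-loop is shown first, because its place in the annotated transcripts went with how many counts a histone gene had. GENCODE 29 transcripts (GRCh38) were searched on the sense strand for the histone stem-loop, written as GG, 2 bases of any kind, CTTTT, any base, AG, 2 bases of any kind and CC. The motif was present in at least 1 transcript of 30 of the 68 members in that release (44.1%), against 50 of the 58608 other genes (0.0853%). It occurred in 5 forms, written below in DNA letters for a member that carries each one, with the arms of the stem in capitals and the loop in lower case.
H2AC6: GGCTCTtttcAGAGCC
H4C8: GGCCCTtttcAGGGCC
H2BC4: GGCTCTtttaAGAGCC
H4C14: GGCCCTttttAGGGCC
H2AC11: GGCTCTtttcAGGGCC
The form in H2AC6 was shared by 17 members, that in H4C8 by 5, that in H2BC4 by 4 and that in H4C14 by 3. The form in H2AC11 was found in that gene alone, and 5 of its 6 arm positions pair by Watson-Crick rules, whereas all 6 do in the other forms. A missing match says only that these letters are not in the annotated sequence, which for 28 of the 38 members without one spans 500 bases or fewer.

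Histone RNA was scarce in all 6 libraries. The members together took 101.8, 83.0 and 90.6 CPM in the controls and 151, 138 and 138 CPM in those labelled FOXF1-activated, and these groups did not overlap. Of the 70 members, 37 passed the filter on low counts and 33 did not. Of the 33, 8 had no count in any library and the other 25 had at most 23 counts in a library. Among the 37 tested members the mean level ran from 0.124 to 14.7 CPM with a median of 1.12 CPM, against a median of 8.40 CPM over all tested genes (levels per gene, not per length). The 12 members with the highest levels held 80.7% of the summed histone level.

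Counts went with how far the annotation of a member runs past the stem-loop. All 21 members with over 200 annotated bases after it, a limit set with the counts known, passed the filter, as did 6 of the 9 with fewer and 9 of the 38 without a match. Their median total counts over the 6 libraries were 639, 200 and 15. The annotated length moved with these groups, with medians of 1929, 509 and 393 bases, and a longer annotation offers more sequence to be counted. Members were placed in these groups by annotation alone, and whether the counted reads lie past the stem-loop was not tested.

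**Figure D1:**
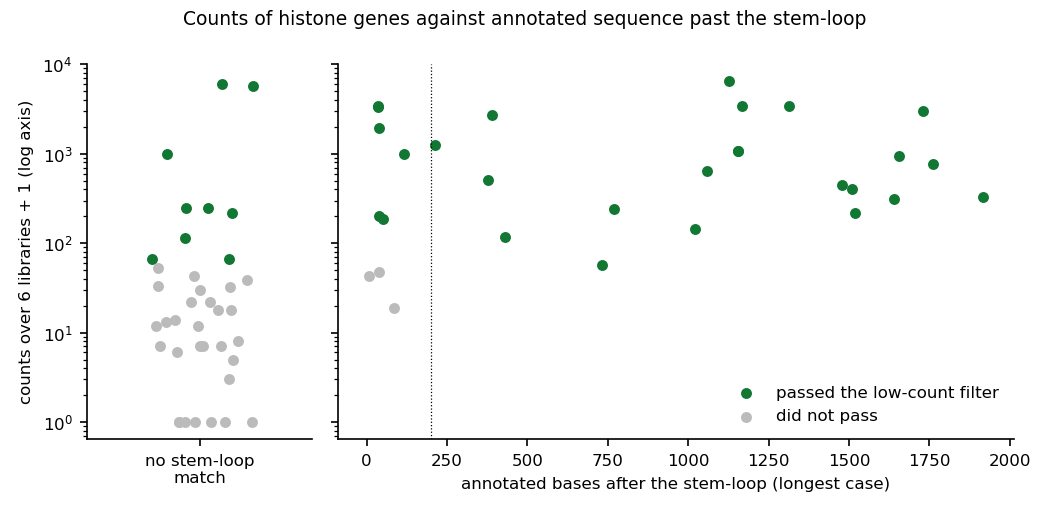
Total counts of each annotated histone gene over 6 libraries plus 1 (log axis) are plotted for genes without a stem-loop match (left) and against the annotated bases after the stem-loop (right), with genes that passed the low-count filter in green. To the right of the dotted line at 200 bases all 21 genes passed, while most of the 38 genes on the left did not.

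Other RNAs without a poly(A) tail were also near 0, although the labels describe depletion of ribosomal RNA from total RNA and no poly(A) selection. Of 14 such RNAs, chosen after their values were seen, 11 had 25 counts or fewer in every library. RN7SK, an abundant regulator of transcript elongation, had 8, 10 and 10 counts in the controls and 14, 15 and 22 in the libraries labelled FOXF1-activated. RMRP, the RNA of an endoribonuclease, had 3 counts in 1 library and 0 in the others. The exceptions were RN7SL1 and RN7SL2, the RNAs of the signal recognition particle, and SNORD3A, a small nucleolar RNA. RN7SL1 had 230, 225 and 216 counts in the controls and 893, 1083 and 211 in the other group, so that FOXF1-activated replicate 3 stood at the control level. SNORD3A had 21, 0 and 17 counts and 395, 201 and 277, without overlap. Why most of these RNAs were near 0 was not tested, nor was their part in the histone levels.

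The comparison of the groups asked how the RNA of the histone genes differed with the hairpin. Of the 37 tested members, 12 were higher and 4 lower in the libraries labelled FOXF1-activated, and 21 were not called. This is 43.2% called, against 60.7% of all tested genes. The share called higher was 32.4%, near the 29.2% of all genes, and the share called lower was 10.8%, against 31.5%. The median log2 fold change was 0.26 (0.60 with a filter of 1 CPM in 3 libraries), against 0.00 over all tested genes, and 18 members had groups without overlap (48.6%, against 68.8% of all genes). In bulk RNA a change in the number of cells in S phase and a change in histone RNA per cell cannot be told apart.

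**Figure D2:**
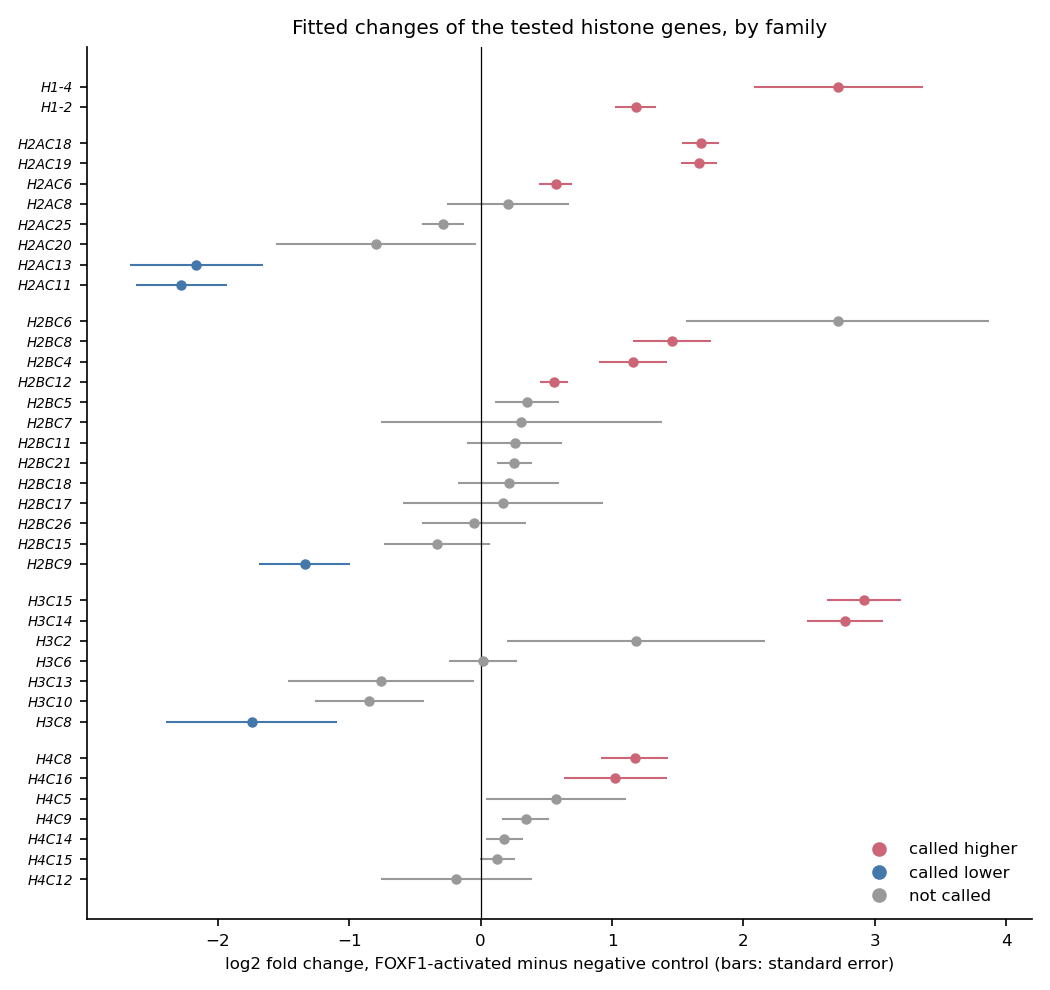
Fitted log2 fold change (points) and standard error (bars) of each of the 37 tested histone genes, grouped by family and coloured by call. Both H1 genes lie to the right of 0, the H2A genes spread from -2.28 to 1.68, and the longest bar, of H2BC6, belongs to a gene under 1 CPM.

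Linker histones, which bind the DNA between nucleosomes, rose where they could be tested. H1-2 (ENSG00000187837, chromosome 6, 26055787 to 26056428, minus strand) was at 9.11, 8.01 and 8.24 CPM in the controls and at 23.9, 15.7 and 17.9 CPM in those labelled FOXF1-activated. All 3 of the latter lay above all controls, and replicate 1 stood highest. The group means were 8.45 ± 0.58 and 19.1 ± 4.2 CPM (SD, n = 3; log2 fold change 1.18 ± 0.16 SE, edgeR adjusted p = 0.000115). H1-4 was at 0.251, 0.156 and 0.0270 CPM and at 0.710, 0.861 and 1.34 CPM. Its groups did not overlap either, with 34 counts over the controls and 211 over the others, and the fitted log2 fold change was 2.72 ± 0.64 SE (edgeR adjusted p = 0.00463). H1-1, H1-3, H1-5 and H1-6 had 2 to 52 counts in all and were not tested.

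H2A genes, whose product pairs with H2B in the nucleosome, went both ways, with 3 higher, 2 lower and 3 not called. H2AC6 (chromosome 6, 26124145 to 26139116, plus strand), the member with the highest summed counts, was at 13.6, 10.2 and 11.6 CPM in the controls and at 19.1, 16.9 and 16.7 CPM in the other group. Each library labelled FOXF1-activated lay above each control, and the log2 fold change was 0.57 ± 0.12 SE (edgeR adjusted p = 0.00287). H2AC18 was at 4.21, 3.22 and 3.41 CPM and at 11.5, 11.4 and 11.7 CPM, and H2AC19 at 4.22, 3.35 and 3.49 CPM and at 11.7, 11.5 and 11.8 CPM. These 2 genes are near-identical copies on chromosome 1, with 100% of the 100-base stretches of H2AC18 also in H2AC19, so their separate values may be shared reads. Summed as 1 gene, a choice made after seeing the data, they rose from 8.44, 6.57 and 6.90 CPM to 23.3, 22.9 and 23.5 CPM (log2 fold change 1.67 ± 0.12 SE, edgeR adjusted p = 1.43e-06). Their counts were close, at 336 and 337 in negative control replicate 1 and 812 and 827 in FOXF1-activated replicate 1. If reads were counted for both copies, the sum repeats them, and its level is too high and its SE and p too small. Whether they were was not tested.

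H2AC11 fell the most of all tested members. H2AC11 (ENSG00000196787, chromosome 6, 27133042 to 27135291, plus strand) was at 3.13, 2.44 and 2.71 CPM in the controls and at 0.710, 0.706 and 0.294 CPM in those labelled FOXF1-activated, with no overlap. Its log2 fold change was -2.28 ± 0.34 SE (edgeR adjusted p = 0.000292). H2AC13 was at 0.852, 0.730 and 0.561 CPM and at 0.17, 0.226 and 0.0800 CPM (log2 fold change -2.16, edgeR adjusted p = 0.00427). Summed with its near-identical copy H2AC14 it had a log2 fold change of -1.95. With 12, 16 and 6 counts of H2AC13, the libraries labelled FOXF1-activated did not meet the filter alone, and it was tested by way of the controls. H2AC25, of the HIST3 cluster, was at 6.38, 5.62 and 7.81 CPM and at 5.48, 5.73 and 5.05 CPM, and its overlapping groups gave no call (log2 fold change -0.28, edgeR adjusted p = 0.156).

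Of 13 tested H2B genes 3 were higher, 1 was lower and 9 were not called. H2BC12 was at 11.5, 9.63 and 9.92 CPM in the controls and at 15.8, 14.7 and 15.2 CPM in those labelled FOXF1-activated, without overlap (log2 fold change 0.56 ± 0.11 SE, edgeR adjusted p = 0.00144). Per annotated kilobase it had the highest level of the tested members, 27.1 and 40.0 CPM per kilobase over 381 annotated bases, followed by H1-2 at 13.2 and 29.8 CPM per kilobase. The length of the annotation differs between genes, so the per-length order depends on it. H2BC4 was at 1.62, 1.33 and 1.28 CPM and at 3.01, 4.15 and 2.30 CPM, and H2BC8 at 1.03, 0.730 and 0.561 CPM and at 2.50, 1.79 and 2.08 CPM. Both were higher in every library labelled FOXF1-activated than in any control, with log2 fold changes of 1.16 and 1.46.

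H2BC9 was the H2B gene that fell, from 1.08, 0.964 and 0.869 CPM to 0.298, 0.381 and 0.467 CPM (log2 fold change -1.34 ± 0.34 SE, edgeR adjusted p = 0.00731). H2BC21, at 6.47, 5.62 and 6.56 CPM and at 7.00, 7.97 and 7.32 CPM, did not pass the test although its groups did not overlap (log2 fold change 0.26, edgeR adjusted p = 0.127). H2BC5 was at 5.24, 3.17 and 3.08 CPM and at 5.85, 4.16 and 4.65 CPM, with overlap and no call. Without negative control replicate 1, the highest control, its log2 fold change was 0.64 (edgeR adjusted p = 0.0295). H2BC6 had a fitted log2 fold change of 2.72 but 16 counts over the controls and 100 over the other libraries, and it was not called (edgeR adjusted p = 0.0667). The alternatives that called it included leaving out negative control replicate 1 (4.41) or FOXF1-activated replicate 2 (3.24) and DESeq2 (2.79).

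H3 genes, whose protein carries many of the known chromatin marks on its tail, held the largest rises. H3C14 was at 0.865, 0.430 and 0.575 CPM in the controls and at 4.83, 4.46 and 3.57 CPM in those labelled FOXF1-activated, and H3C15 at 0.777, 0.469 and 0.468 CPM and at 5.03, 4.50 and 3.46 CPM. No library of 1 group reached the range of the other for either gene. Each copy shares all of its 100-base stretches with the other over 1656 annotated bases, and together they rose from 1.64, 0.899 and 1.04 CPM to 9.86, 8.96 and 7.02 CPM. The summed log2 fold change was 2.85 ± 0.25 SE (edgeR adjusted p = 7.8e-06). As for H2AC18 and H2AC19, this sum repeats reads if they were counted for both copies. H3C14 overlaps H4C14, and H3C15 overlaps H4C15, on the opposite strand, and the strand setting of the counting is not given in the sources used here.

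H3C8 fell, with a call that depended on single libraries. With 32, 11 and 4 counts of H3C8, the libraries labelled FOXF1-activated did not meet the filter alone, and it was tested by way of the controls. It was at 0.702, 0.717 and 0.802 CPM in the controls and at 0.454, 0.155 and 0.0530 CPM in the other group, without overlap (log2 fold change -1.74 ± 0.65 SE, edgeR adjusted p = 0.0419). The call was lost without any 1 of negative control replicates 1, 2 and 3 or FOXF1-activated replicates 2 and 3, with log2 fold changes from -1.79 (negative control replicate 1 left out) to -1.28 (FOXF1-activated replicate 3 left out). It was also lost with no filter (-1.77) and with upper-quartile scaling (-1.64). The other 4 tested H3 genes, H3C2, H3C6, H3C10 and H3C13, were not called, and H3C10 stood at 0.679 and 0.377 CPM (log2 fold change -0.85, edgeR adjusted p = 0.104).

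Of 7 tested H4 genes, which encode the partner of H3, 2 were higher and none was lower. H4C8 was at 1.37, 1.25 and 1.28 CPM in the controls and at 3.47, 1.99 and 3.34 CPM in those labelled FOXF1-activated, without overlap (log2 fold change 1.17 ± 0.26 SE, edgeR adjusted p = 0.00304). H4C16, the single gene of the HIST4 cluster, was at 0.739, 0.547 and 0.508 CPM and at 1.26, 1.72 and 0.681 CPM. FOXF1-activated replicate 3 lay within the range of the controls, and the log2 fold change of 1.03 only just passed (edgeR adjusted p = 0.044). That call was lost without any 1 of the other 5 libraries, with log2 fold changes from 0.70 (FOXF1-activated replicate 2 left out) to 1.20 (negative control replicate 1 left out). It was also lost with library totals (0.95), limma-voom (0.93) and no filter (1.001).

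The most abundant H4 genes showed no called difference. H4C14 was at 7.83, 6.63 and 7.33 CPM in the controls and at 7.47, 9.37 and 7.86 CPM in the other group, and H4C15 at 8.07, 6.62 and 7.42 CPM and at 7.55, 8.48 and 8.13 CPM. The groups overlapped for both. These near-identical copies, which face H3C14 and H3C15, had a summed log2 fold change of 0.15 ± 0.11 SE (edgeR adjusted p = 0.255). This sum has the same limit as those of the H2A and H3 copies. H4C9 was at 2.73, 2.37 and 2.41 CPM and at 3.21, 2.89 and 3.42 CPM and was not called (log2 fold change 0.34, edgeR adjusted p = 0.132). H4C12 had the lowest fitted value of the family (log2 fold change -0.19, edgeR adjusted p = 0.8), and its sign turned with replicate 2 of either group left out (0.30 for the control, 0.10 for the other).

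**Figure D3:**
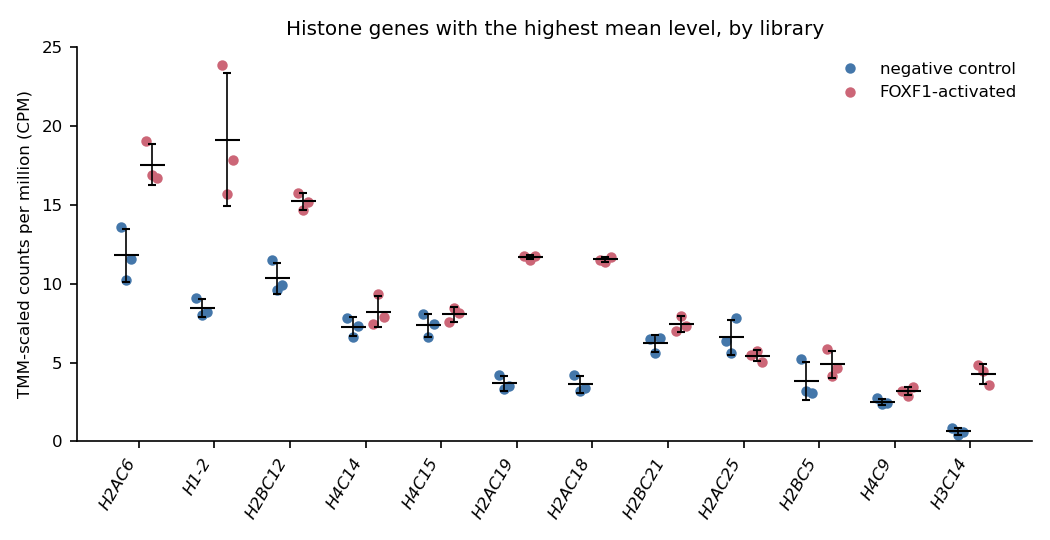
TMM-scaled CPM of the 12 histone genes with the highest mean level, with 1 point per library, the mean as a horizontal line and the SD as bars (n = 3 per group). H2AC6, H1-2, H2BC12, H2AC18, H2AC19 and H3C14 were called higher, while the near-identical H4C14 and H4C15 have overlapping groups.

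Summed levels follow the family. They are less affected where reads were divided among near-identical copies, but they repeat reads that were counted for both copies. Which of these the counting did was not tested. Where reads were counted for both, the sums and ratios below give such copies too much weight. This holds for the copies called higher and for H4C14 and H4C15, which were not called. All members together were at 91.8 ± 9.5 CPM in the controls and at 142 ± 8 CPM (SD, n = 3) in those labelled FOXF1-activated, a ratio of 1.55. The ratio was 2.32 for H1, 2.20 for H3, 1.59 for H2A, 1.37 for H2B and 1.23 for H4, and in each family all 3 libraries labelled FOXF1-activated lay above all controls. The sums rest on few genes: H1-2 made up nearly all of the H1 level, at 8.45 of 8.79 CPM in the controls. The mean H3 sum went from 5.43 to 11.97 CPM. That rise lay in the copies H3C14 (mean 0.623 to 4.28 CPM) and H3C15 (0.571 to 4.33 CPM). The mean H2A sum went from 30.1 to 47.8 CPM. Most of that rise lay in the copies H2AC18 (mean 3.61 to 11.5 CPM) and H2AC19 (3.69 to 11.7 CPM). The H3 and H2A ratios therefore do not show a rise throughout these families. The 33 members that were not tested summed to 1.19 ± 0.19 and 1.03 ± 0.35 CPM, with overlapping groups.

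By cluster, 7 of 24 tested HIST1 members were higher (29.2%, as over all tested genes) and 4 lower (16.7%, against 31.5%). In HIST2 4 of 10 were higher and none was lower, and these 4 are 2 pairs of near-identical copies. The members on chromosome 6 fall into 3 stretches separated by over 500 kb. In the stretch from 25726132 to 26285638, 6 of 14 tested members were higher and 2 lower, with a median log2 fold change of 0.57. In that from 27807444 to 27893843, none of 5 was higher and 1 was lower, with a median of -0.33, and no test of the difference between stretches was run. The HIST2 copies called higher were H2AC18, H2AC19, H3C14 and H3C15, which lie between 149839538 and 149854274 on chromosome 1. H2BC20P, an H2B pseudogene that was singled out after its values were seen, also rose, from 16.1 ± 1.6 to 43.9 ± 1.8 CPM (SD, n = 3 each; log2 fold change 1.45, edgeR adjusted p = 6.99e-07).

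H2A and H2B genes often lie head to head and share the sequence between them. There were 11 such pairs with starts at most 1000 bases apart, and in 5 of them both genes were tested. H2AC6 and H2BC4, 218 bases apart, both rose (log2 fold changes 0.57 and 1.16). H2AC11 fell (-2.28) while its partner H2BC11, 291 bases away, was not called (0.26, edgeR adjusted p = 0.566). In the pair H2AC8 and H2BC8 the H2B gene rose (1.46) and the H2A gene was not called (0.21, edgeR adjusted p = 0.718). Neither gene was called in the pairs H2AC20 with H2BC21 and H2AC25 with H2BC26.

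Promoters are shown for a gene that rose with its head-to-head partner (H2AC6), for the gene with the largest fall (H2AC11) and for a copy with one of the largest rises (H3C14). Each runs from 250 bases before to 50 bases after the RefSeq start on GRCh38.p14, 5′ to 3′ on the gene's own strand. Capitals mark TATAAA (the TATA box), CCAAT and ATTTGCAT (the octamer) on either strand, so their reverse complements are in capitals too, and neighbouring matches can overlap.
H2AC6, chr6:26123922-26124221, plus strand: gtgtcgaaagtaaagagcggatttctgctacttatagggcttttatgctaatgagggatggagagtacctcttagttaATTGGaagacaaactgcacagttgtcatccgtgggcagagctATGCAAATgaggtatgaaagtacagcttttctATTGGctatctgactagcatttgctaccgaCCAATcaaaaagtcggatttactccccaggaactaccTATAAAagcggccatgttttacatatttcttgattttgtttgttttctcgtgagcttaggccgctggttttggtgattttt
H2AC11, chr6:27132793-27133092, plus strand: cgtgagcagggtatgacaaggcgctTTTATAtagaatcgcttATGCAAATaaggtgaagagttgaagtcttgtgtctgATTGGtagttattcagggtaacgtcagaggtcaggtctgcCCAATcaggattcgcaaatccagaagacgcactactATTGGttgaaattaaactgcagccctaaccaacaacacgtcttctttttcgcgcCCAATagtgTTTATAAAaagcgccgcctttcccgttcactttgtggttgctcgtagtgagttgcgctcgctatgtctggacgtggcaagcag
H3C14, chr1:149841159-149841458, minus strand: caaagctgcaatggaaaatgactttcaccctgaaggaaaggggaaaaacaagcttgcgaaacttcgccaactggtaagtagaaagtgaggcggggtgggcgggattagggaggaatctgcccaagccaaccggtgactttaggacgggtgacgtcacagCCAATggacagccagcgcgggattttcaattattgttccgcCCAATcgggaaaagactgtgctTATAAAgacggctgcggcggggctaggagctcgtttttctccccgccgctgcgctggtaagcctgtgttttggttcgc
Of the 70 members 64 matched a RefSeq promoter. CCAAT was in 84.4% of them, against 34.6% of 35116 promoters of the same length, and the octamer in 40.6% against 1.77%. TATAAA was in 65.6% against 11.5%. By family, CCAAT was in 100% of H1, H2A, H2B and H3 promoters and in 23.1% of H4 promoters. The octamer was in 68.8% of H2A and 77.8% of H2B promoters and in none of H1 or H4. Promoter windows of head-to-head partners such as H2AC11 and H2BC11 overlap, and H2AC7 and H3C4 have the same window. A match in shared sequence, read on either strand, counts for both genes, so the shares of these families are not independent. The octamer was in 4 of the 12 members called higher, in 2 of the 4 called lower and in 8 of the 21 tested without a call, and TATAAA in 10, 2 and 12 of them.

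The genes around histone supply were read from lists whose members were chosen with earlier results of these data known. Counts in them stand against 29.2% higher and 31.5% lower over all tested genes. Of 12 replacement and variant histones 9 were lower and none higher, with a median log2 fold change of -0.58. H2AX, the variant phosphorylated at DNA breaks, fell by 1.08 on the log2 scale, H2AZ2 by 1.23 and the centromeric CENPA by 0.81. H3-3B, one of the genes for H3.3, fell by 0.40, and H3-3A, the other, was not called (log2 fold change 0.05, edgeR adjusted p = 0.525).

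Genes for histone mRNA synthesis and 3′ processing split, with 7 of 17 higher, 7 lower and a median of 0.08. LSM11, a subunit of the U7 particle that cuts the mRNA end, was at 14.7, 13.7 and 13.3 CPM in the controls and at 30.7, 32.2 and 29.7 CPM in the other group (log2 fold change 1.15, edgeR adjusted p = 2.03e-06). The cleavage factor genes CSTF2 (1.32) and SYMPK (0.88) rose as well. SLBP, at 75.7, 76.4 and 71.4 CPM and at 73.7, 62.4 and 69.1 CPM, was not called (log2 fold change -0.12, edgeR adjusted p = 0.154). CASP8AP2, needed for histone transcription (-1.45), the cyclin gene CCNE2 (-1.59) and its kinase gene CDK2 (-1.12) fell. NPAT was lower by a small margin (log2 fold change -0.24, edgeR adjusted p = 0.0359), and that call was lost in 10 of 16 alternatives, among them leaving out replicate 2 or 3 of either group (log2 fold changes -0.25 to -0.18).

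Of 7 genes of histone mRNA decay 5 rose and 1 fell, with a median of 0.40. UPF1, the helicase that starts the decay of histone mRNA, was at 113, 109 and 106 CPM in the controls and at 216, 180.5 and 183 CPM in those labelled FOXF1-activated (log2 fold change 0.82, edgeR adjusted p = 7.9e-06). The uridyltransferase genes went apart, TUT7 higher (0.67) and TUT4 lower (-0.39). LSM1, of the ring that binds the uridine tail, rose by 0.35 (edgeR adjusted p = 0.0262), and the call depended on negative control replicates 2 and 3 and FOXF1-activated replicate 1 (log2 fold changes 0.23 to 0.36 with each left out). The LSM1 call was also lost with library totals (0.27) and with no filter (0.32).

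Histone chaperones, which escort the proteins to DNA, fell for 11 of 15 genes and rose for 3, with a median of -0.64. ASF1B was at 48.9, 52.2 and 45.7 CPM in the controls and at 12.5, 15.6 and 14.2 CPM in the other group (log2 fold change -1.79, edgeR adjusted p = 3.54e-07). HJURP, the chaperone of CENPA (-1.91), and CHAF1B (-1.48) and CHAF1A (-0.67), of the assembly factor that follows the replication fork, fell too, as did NASP (-0.50). In the list of S phase DNA replication 24 of 25 genes were lower, with a median of -0.98, among them PCNA (-1.69) and RRM2 (-1.59). The clustered histone genes, usually expressed in the same phase, had 4 of 37 lower, and the difference between these lists was not tested. The lists differ in level and in transcript end as well as in function: among 366 other tested protein-coding genes annotated as 1 exon block, 99 were higher and 149 lower, with a median of -0.25.

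**Figure D4:**
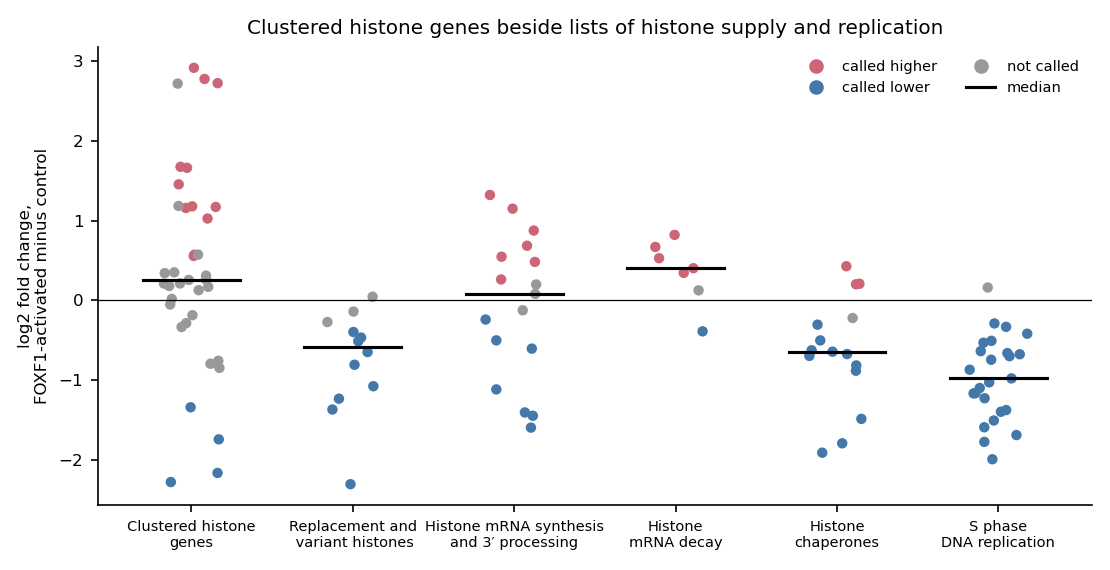
Fitted log2 fold change of each tested gene (points, coloured by call) in the clustered histone genes and in 5 lists of histone supply and replication, with the median as a black bar. The clustered histone genes spread on both sides of 0 around a median of 0.26, while all points but 1 of the S phase list lie below 0.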

How the data were processed

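RNA was measured in 6 libraries of T24 cells, 3 per group, grouped by the titles in the labels. The authors deposited a table of whole-number gene counts with 60612 Ensembl identifiers, with no normalisation visible in the values. The submitters' processing notes name cutadapt 1.9, TopHat2 2.0.4 and GRCh38. How genes were counted (tool, strand setting, annotation release) is not given in the sources used here. The values 4, 8 and 12 were 2.36, 1.94 and 1.60 times as frequent as their neighbours, so depth may be overstated.

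Identifiers were joined to a symbol table, and 2 members (H2AC18 and H2AC19) were matched by their older names in GENCODE 29, which gave coordinates for 68 members. Genes were kept by filterByExpr (minimum count 10, minimum total 15), scaled by TMM and tested with edgeR 4.0.16 (quasi-likelihood, R 4.3.3), with Benjamini-Hochberg adjustment over all 20334 tested genes and a threshold of 0.05. Standard errors are the log2 fold change divided by the square root of F. The test was also run on simulated data, where it missed part of the changed genes and more of its calls were false than the threshold is meant to allow, and the limits set for that check were loosened after runs that failed them. Alternatives were DESeq2 size factors, upper-quartile scaling, library totals, no filter, 1 CPM in 3 libraries, DESeq2 1.42.0, limma-voom (limma 3.58.1), the replicate number in the model, each library left out in turn, counts divided by 4 and a prior count of 2.

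The members and lists were chosen with earlier results of these data known. Named were FOXF1, the 12 members with the highest level, the most and least changed of each family, every member called lower (those called higher were added with values known), up to 6 called genes with the smallest p in each other list, and set genes of histone supply. The stem-loop motif was widened after a narrower form matched fewer members. The list of RNAs without poly(A) tails and the summing of copies that share at least 50% of 100-base stretches were chosen after seeing the data. Some genes that the rule names are left out of the text.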

Additional observations from a re-analysis of the deposited data

How the results depend on the processing

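Over all alternatives 10 to 13 members were called higher and 1 to 5 lower, the summed ratio was 1.47 to 1.66, and the median log2 fold change of the members was 0.18 to 0.60 (0.38 with counts divided by 4). With each library left out in turn, 11 to 13 members were higher and 3 to 5 lower. The filter of 1 CPM in 3 libraries left 1 lower, because it tests fewer members. Among 375 alternatives for 24 named members, 351 kept direction and side of the threshold, 16 lost the call (7 for H3C8 and 9 for H4C16), 6 gained one and 2 changed sign (H4C12, 0.097 without FOXF1-activated replicate 2 and 0.296 without negative control replicate 2, over a range from -0.733 with a library left out). H3-3A changed sign with library totals (-0.032) and ran from -0.003 to 0.082 with a library left out. In the S phase list 1 gene was higher with the 1 CPM filter, DESeq2 size factors, the DESeq2 test, counts divided by 4 and upper-quartile scaling, and 0 to 1 with a library left out. Among chaperones 1 was higher with library totals, and 1 to 3 with a library left out. The causes were not tested.

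Same-numbered libraries of the groups did not deviate together (correlations -0.0202, -0.001 and -0.0206), so the numbers were not taken to pair them. With the replicate number as a block 12 members were higher and 4 lower, as many as without it, and 5630 and 6160 of all genes. Under the block H4C16 was not called (log2 fold change 0.95, edgeR adjusted p = 0.0688), while H2BC6 was (3.07, edgeR adjusted p = 0.0303) and NPAT lost its call (-0.24, edgeR adjusted p = 0.0591). Counting H3-4 and H3-7 as members added H3-7, which was lower (log2 fold change -1.66, edgeR adjusted p = 0.000285). Of the 37 tested members 18 lie under 1 CPM, and counts divided by 4 gave 12 higher and 4 lower.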
